A study of Homo sapiens with 6 samples.

Results

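The transcripts described here are known on the array only by a UniGene cluster number. UniGene was a public collection in which mRNAs and expressed sequence tags, short single-pass reads of cDNA ends, were grouped into clusters thought to come from the same transcribed locus. A cluster that had not been tied to a gene when an array was designed kept its number as its name, so these probes read transcribed sequence whose gene and function the table does not state. Members were the probes with a target name beginning HS. and a detection p under 0.01 on the 3 arrays of either group. The detection p is the scanner software's estimate of how often a negative control bead would be as bright.

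Of 48701 probes on the array, 18152 carried a UniGene name and 1116 of these were members. Each of the 18152 probes named a cluster of its own, so no 2 members shared a named target. Detection on all 6 arrays was reached by 871 members, while 94 met the rule on the GFP arrays only and 151 on the SNRK arrays only. The files and the gene table used here pair none of these clusters with a gene, so the members are given by cluster number and probe, with no role.

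The arrays came from HEK293 cells, an established human embryonic kidney line transformed with adenovirus DNA. Cells were transfected with pEGFPN3, a plasmid that expresses enhanced green fluorescent protein, or with the same plasmid carrying human SNRK (SNRK-pEGFPN3), using Lipofectamine with Plus Reagent, and RNA was taken after 48 hours. SNRK is a serine/threonine kinase of the AMP-activated protein kinase family, which is switched on by the kinase LKB1. There were 3 arrays per group, called GFP 1 to 3 and SNRK 1 to 3. Nothing in the labels says that replicates were separate cultures, so the spread behind each p-value is that between arrays and could be technical. The labels do not give the share of cells that took up plasmid. In such bulk RNA, fewer cells of a type and less RNA per cell cannot be told apart.

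Each array had 15133 to 16190 detected probes and a median signal of 93.8 to 102. For SNRK itself the probe gave 350 to 382 with GFP and 458 to 485 with SNRK, a log2 difference of 0.44 ± 0.09 (SE, limma adjusted p = 0.0219). Whether that probe reads the plasmid insert is not known here. Of 7 HEK293 marker genes, 6 were detected on all 6 arrays, and PAX2 on 2 of 6 at its better probe. Lymphoid (PTPRC, CD3E) and fibroblast (COL1A1, COL1A2) markers were detected on no array. Of the endothelial markers, CDH5 was detected on no array and PECAM1 on all 6, near the detection limit with signals of 109 to 123. Summed normalized signal of the HEK293 list was 16298 to 18039 on the GFP arrays and 16762 to 19871 on the SNRK arrays. Most of that sum came from the vimentin gene VIM, whose probe read 13540 to 17003 before normalization.

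Few UniGene probes gave a signal in these cells. Of the 18152, 15938 (87.8%) were detected on no array, against 8840 of 22950 gene-named probes (38.5%). Gene-named here means a target name that is a current or older symbol in RefSeq, and another 7599 probes had other names, such as provisional locus numbers. The rule kept 6.15% of UniGene probes, 54.1% of gene-named probes and 18.8% of other-named probes. A further 1098 UniGene probes were detected on 1 to 5 arrays without filling either group.

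By array, the number of detected UniGene probes was 1419, 1286 and 1207 for GFP 1 to 3. It was 1316, 1361 and 1571 for SNRK 1 to 3. The groups overlapped, with SNRK 3 the highest and GFP 3 the lowest. Gene-named probes numbered 12458 to 12728 on the GFP arrays and 12795 to 13026 on the SNRK arrays, where the groups did not overlap. In the better of the 2 groups, 961 members had a detection p of 0 on every array. Just inside the threshold, 90 UniGene probes had a highest p between 0.00517 and 0.00968 in the better group. Their mean signals over all 6 arrays were 109 to 126. Just outside the threshold, 116 had a p between 0.0103 and 0.0194 and mean signals of 106 to 121. In these means over 6 arrays, signals inside and outside the threshold overlapped.

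The members were dim. Levels are given as background-corrected, quantile-normalized log2 signals. Over the 871 detected on all 6 arrays, the median level was 6.65 (quartiles 5.89 and 7.70), against 8.21 (6.85 and 9.72) over 11599 gene-named probes and 7.53 over 1246 other-named probes detected as widely. Of these members, 396 lay below 6.5 and only 35 at 9.5 or above. A level is that of 1 probe, whose brightness also depends on how well it binds, so levels of different probes are not compared one against another.

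The 5 brightest members did not pass the test between groups. The brightest, HS.579631 (ILMN_1881909), read 27444, 29637 and 27470 with GFP and 29320, 27657 and 17204 with SNRK. SNRK 3 stood below the other 5 arrays, and the groups overlapped (log2 difference -0.24 ± 0.20 SE, limma adjusted p = 0.435). HS.213061 (ILMN_1869109) read 9264, 10196 and 9345 against 9557, 9264 and 10019, with a difference of 0.03 ± 0.08. It was the steadiest of the 5 brightest in the SNRK group, with an SD of 0.03 on the log2 scale.

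The next 2 varied more within a group than between groups. HS.508682 (ILMN_1821517) read 12393, 6937 and 6749 with GFP and 8008, 5182 and 7397 with SNRK, with GFP 1 far above the others. HS.580797 (ILMN_1903815) read 6589, 6804 and 7546 against 9937, 6863 and 6104, with SNRK 1 the highest. HS.25892 (ILMN_1898124) was the one of the 5 whose groups did not overlap, at 3923, 3716 and 3411 against 2988, 2886 and 3215. Its difference of -0.25 ± 0.08 did not pass (limma adjusted p = 0.0689), nor did those of the other 4, whose adjusted p lay between 0.435 and 0.817.

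The comparison of SNRK with GFP asks which of these transcripts change when SNRK is raised. A call is an adjusted p under 0.05 in limma's moderated test, fitted and adjusted over all 14964 probes of the table that met the detection rule. Calls are counted over the 871 members detected on all 6 arrays only, since a member that entered through 1 group was picked by a value tied to the comparison. Of these 871, 161 (18.5%) fell in SNRK cells and 30 (3.44%) rose. Over all 13716 probes detected on all 6 arrays, 5.99% fell and 6.71% rose, and over gene-named probes alone 5.18% fell and 7.02% rose. Over all 14964 fitted probes the shares were 6.06% and 6.88%.

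UniGene members made up 6.35% of the probes detected on all 6 arrays, 161 of the 821 that fell (19.6%) and 30 of the 921 that rose. Falls of 2-fold or more were found in 80 probes (0.583% of those tested), of which 32 were UniGene members, and falls of 4-fold or more in 12, of which 6 were. None of the 40 that rose by 2-fold or more (0.292%) was. The median log2 difference of the 871 members was -0.08, with quartiles of -0.33 and 0.09, beside a median of 0.00 and quartiles of -0.15 and 0.16 over gene-named probes. A difference below 0 was found in 61.9% of the members and in 50.2% of all probes detected on all 6 arrays. These shares and medians are descriptions, and the difference between the classes of probes was not tested.

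Called members that fell had a median log2 difference of -0.71, a 1.64-fold fall, and ranged from -3.17 to -0.32. By size, 48 of them fell by less than 1.5-fold and 32 by 2-fold or more. The 30 that rose did so by 0.32 to 0.83 on the log2 scale, with a median of 0.54. Members that fell had a median level of 7.70 (quartiles 6.98 and 8.31), against 7.46 for those that rose and 6.38 for the 680 that did not pass.

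Set beside gene-named probes of equal level, the share of members that fell was higher in each bin up to level 9 than in the one before it. In bins of 0.5 on the log2 scale, 0 of 41 members and 0 of 136 gene-named probes fell below level 5.5. Between 5.5 and 6, 9 of 213 members fell (4.23%), against 3.06% of gene-named probes. Between 6 and 6.5 the share was 9.15% against 5.62%. It was 18.6% and 19.6% in the next 2 bins, against 4.86% and 6.13% of gene-named probes.

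Above level 7.5 the shares of the classes lay farther apart. In the bins starting at 7.5, 8, 8.5 and 9, 41.2%, 43.6%, 47.4% and 37.5% of members fell, beside 6.27%, 6.75%, 5.69% and 7.21% of gene-named probes. Together, 94 of 220 members in this range fell (42.7%) and 11 rose (5.0%), whereas 261 of 4043 gene-named probes fell (6.46%) and 372 rose (9.20%). Other-named probes of the same range had 7.39% falls and 6.53% rises. The median log2 difference here was -0.32 over members and 0.02 over gene-named probes, and 164 of the 220 members (74.5%) had a difference below 0. The range was picked after the bins had been seen. Its count of 94 falls was 55 without GFP 1, 50 without GFP 2 and 49 without SNRK 1, and 81 to 105 with any other array left out. At level 9.5 or above, 3 of 35 members fell and 3 rose (8.57% each), beside 4.18% and 5.37% of gene-named probes.

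Weighting the bins of gene-named probes by the number of members in each gives the share at equal level. It was 4.86% for falls and 6.4% for rises, against 18.5% and 3.44% of the members. Other-named probes weighted in the same way had 4.58% and 6.34%. With bins set by the GFP level alone, the equal-level share of falls was 4.27%.

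The 8 largest falls among members detected on all 6 arrays are given with their signals as deposited, before background was removed. The folds that follow them are after background correction and are therefore larger than the ratio of the printed signals. HS.571405 (ILMN_1836682) read 559, 564 and 391 with GFP and 126, 139 and 112 with SNRK. Its level went from 8.71 ± 0.29 to 5.54 ± 0.26 (SD, 3 arrays each), an 8.97-fold fall (limma adjusted p = 4.47e-05). All 3 SNRK signals lay near the detection limit, and on the deposited normalized values its log2 difference was -1.35 in place of -3.17.

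HS.545896 (ILMN_1892005) read 426, 443 and 338 against 117, 130 and 118 and fell 7.40-fold (log2 difference -2.89 ± 0.14 SE, limma adjusted p = 2.09e-05). On the deposited normalized values, HS.545896 had a log2 difference of -1.12. HS.563600 (ILMN_1862938) read 382, 398 and 312 against 125, 128 and 121 and fell 6.11-fold (-2.61 ± 0.11, adjusted p = 1.91e-05), with a difference of -0.99 on the deposited normalized values. The SNRK signals of both lay near the detection limit. In both, as in HS.571405, GFP 3 was the lowest GFP array and yet more than 2-fold above the highest SNRK array in deposited signal. HS.156773 (ILMN_1885774) read 632, 589 and 481 against 156, 174 and 160 and fell 5.72-fold (-2.52 ± 0.11, adjusted p = 1.91e-05), and its difference on the deposited normalized values was -1.29.

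A pair of brighter clusters stayed well detected after falling. HS.436762 (ILMN_1907022) read 1642, 1629 and 1353 with GFP and 295, 392 and 307 with SNRK, a 5.68-fold fall (-2.51 ± 0.13 SE, limma adjusted p = 3.87e-05). HS.566192 (ILMN_1873698) read 1665, 1607 and 1285 against 300, 401 and 340, a 5.26-fold fall (-2.40 ± 0.14, adjusted p = 6.56e-05). The profiles of these 2 probes over the 6 arrays were alike, with GFP 1 the highest, GFP 3 the lowest GFP array and SNRK 2 the highest SNRK array in each. This order was not particular to the pair. HS.156773 had it too, and SNRK 2 was the highest SNRK array in 132 of the 161 members that fell. Whether HS.436762 and HS.566192 belong to the same transcript is not known here.

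The last 2 of the 8 fell by about 3-fold. HS.537675 (ILMN_1906129) read 252, 254 and 205 against 127, 141 and 121 and fell 3.16-fold (-1.66 ± 0.13 SE, limma adjusted p = 0.000348), with a difference of -0.54 on the deposited normalized values. The SNRK signals of HS.537675 lay near the detection limit. HS.552149 (ILMN_1895473) read 1239, 1305 and 1199 against 433, 545 and 438 and fell 2.94-fold (-1.55 ± 0.11, adjusted p = 0.000279). SNRK 2 was the highest SNRK array in all but 1 of the 8 on the normalized scale, the exception being HS.563600.

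Rises were smaller, and 3 of the 4 largest lost their call in at least 1 alternative fit. HS.569985 (ILMN_1859118) read 265, 246 and 291 with GFP and 392, 485 and 376 with SNRK and rose 1.77-fold (0.83 ± 0.14 SE, limma adjusted p = 0.0129). On the deposited normalized values its difference was 0.48. HS.290255 (ILMN_1825777) read 127, 123 and 120 against 184, 162 and 161 and rose 1.76-fold (0.82 ± 0.11, adjusted p = 0.00611). It is the one rise whose call held in all 16 alternative fits. Its GFP signals lay near the detection limit, and its difference on the deposited normalized values was 0.21.

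HS.570343 (ILMN_1902251) read 116, 116 and 129 against 157, 166 and 156 and rose 1.70-fold (0.77 ± 0.15 SE, limma adjusted p = 0.0196). Its GFP signals also lay near the detection limit, and its difference on the deposited normalized values was 0.18. HS.397465 (ILMN_1881948) read 413, 399 and 400 against 635, 786 and 487 and rose 1.69-fold (0.76 ± 0.18, adjusted p = 0.0312), with a difference of 0.55 on the deposited normalized values. The spread in the SNRK group was wide for HS.397465, at 0.40 (SD) against 0.05 in the GFP group. Its call was lost in 7 of the 16 alternatives, that of HS.570343 in 4 and that of HS.569985 in 2, with adjusted p up to 0.111, 0.0843 and 0.0634. All 8 named falls passed in each of the 16, with the highest adjusted p at 0.0046.

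Alternative fits kept part of the calls. Of the 161 falls, 64 (39.8%) passed in every one of the 16 alternative fits, against 54 of 601 falls (8.99%) and 80 of 814 rises (9.83%) of gene-named probes. The 64 had a median level of 8.15 and differences of -3.17 to -0.66. Of the 30 rises, 1 passed in all. The classes differ in level, and the difference between these shares was not tested. The count of members that fell was 75 without GFP 1, 68 without GFP 2 and 67 without SNRK 1, and the equal-level share of gene-named probes then was 0.637%, 0.553% and 0.818%. As a ratio of shares, the classes lay closest without SNRK 3, where 17.1% of members fell against 7.92% of gene-named probes at equal level. The next lowest ratio was with array weights, where 26.8% fell against 12.1%. Over the 16 alternatives the members' share was 2.16 to 14.1 times the equal-level share, beside 3.8 times in the reported fit. The count of members that rose was 3, 2 and 6 in the same fits, and 16 without SNRK 2. Without the detection filter 94 members fell and 12 rose.

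The members' signals on the 3 SNRK arrays were not equal. Among the 161 that fell, the median difference from the GFP mean was -0.81 on SNRK 1, -0.55 on SNRK 2 and -0.88 on SNRK 3. SNRK 2 was the highest SNRK array in 132 of the 161 (82.0%). Among the 601 gene-named probes that fell, SNRK 2 was the lowest in 399 (66.4%) and the highest in 103 (17.1%), with medians of -0.52, -0.62 and -0.41. By these medians SNRK 2 was nearest to GFP for the members and farthest from it for the gene-named probes.

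SNRK 2 was also the highest SNRK array in 359 of the 680 members not called (52.8%), against 31.0% of the 10184 gene-named probes not called. In members that rose it was the highest in 19 of 30 (63.3%), near the 520 of 814 gene-named probes that rose (63.9%). Without SNRK 2, 176 members fell. Among the members that fell, GFP 1, 2 and 3 were the highest GFP array in 68, 45 and 48 of 161. In gene-named probes that fell, GFP 1 was the highest in 379 of 601 and GFP 3 the lowest in 451.

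The median within-group SD of the 871 members was 0.166 on the log2 scale. Averaged over the bins of level, the SD in the GFP group was 0.121 for members and 0.118 for gene-named probes at equal level. In the SNRK group it was 0.184 against 0.147. With SNRK 2 left out of that group, the SD of the 2 arrays left was 0.113 for members and 0.11 for gene-named probes. A median SD of 2 arrays tends to be smaller than one of 3, so these 2 values compare only with each other. Correlations between arrays over the 871 members were 0.986 to 0.987 within the GFP group, 0.968 to 0.982 within the SNRK group and 0.928 to 0.950 across groups, the points sharing 1 level range and 6 libraries.

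The groups of signals did not overlap in 244 members lower in SNRK (28.0%) and 79 higher (9.07%), where 18.2% and 18.5% of all probes detected on all 6 arrays did the same. At equal level, the shares of gene-named probes were 14.6% lower and 16.5% higher. The count of members with separated groups was thus above the background for lower signals and below it for higher ones.

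Cluster numbers gave a further view of the members. The cut at 500000 was chosen after the values were seen. Of 480 members with a number of 500000 or more, 109 fell (22.7%) and 14 rose, and of 391 with a lower number, 52 fell (13.3%) and 16 rose. Their median levels were close, at 6.63 and 6.71. Between levels 7.5 and 9.5, 63 of 125 members with high numbers fell (50.4%) and 31 of 95 with low numbers (32.6%).

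The members that entered through 1 group are given as values, with no test, because detection in that group chose them. Of the 94 that were detected on all 3 GFP arrays only, 20 were detected on no SNRK array, 22 on 1 and 52 on 2. Of the 151 detected on all 3 SNRK arrays only, 23 were detected on no GFP array, 41 on 1 and 87 on 2. Most of them were dim, with median levels of 5.39 and 5.36. Differences ran from -2.83 to -0.03 in the first class and from -0.19 to 0.79 in the second. Gene-named probes also entered more often through SNRK, with 261 detected on all 3 arrays of GFP only and 559 on those of SNRK only. Of these, 26 and 74 were detected on no array of the other group.

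A few of the first class were bright on the GFP arrays. HS.551263 (ILMN_1896914) read 327, 292 and 261 there and 104, 115 and 102 on the SNRK arrays, where it was not well above background, and was at least 5.94-fold lower. HS.519225 (ILMN_1908530) read 270, 266 and 233 against 110, 110 and 94, at least 4.97-fold lower. HS.212407 (ILMN_1849534) read 267, 258 and 207 against 106, 113 and 103, at least 4.61-fold lower. HS.551052 (ILMN_1836775), at 197, 181 and 162 against 99.3, 101 and 90.8, was at least 2.94-fold lower. These bounds set the GFP mean against the lowest signal detected on each SNRK array, or the probe's own where higher, after background correction. They hold for that correction only. In the same order, the ratios of mean deposited signals, GFP over SNRK, were 2.75, 2.45, 2.27 and 1.86.

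The 4 largest differences among members seen with SNRK alone were smaller. HS.540713 (ILMN_1834043) read 102, 96.0 and 109 with GFP and 123, 136 and 137 with SNRK, at least 1.38-fold higher. HS.357539 (ILMN_1913937), at 105, 93.9 and 98.7 against 121, 131 and 116, was at least 1.16-fold higher. HS.571222 (ILMN_1857069) and HS.401965 (ILMN_1908271) were at least 1.18-fold and 1.17-fold higher, with SNRK signals of 114 to 138 and 117 to 127. Their GFP signals were 98.8 to 107 and 99.8 to 108, so each pair of groups was separated by a gap of a few units.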

How the data were processed

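Per the labels' protocols, total RNA was turned into biotin-labelled cRNA with an Ambion MessageAmp kit and read on Illumina bead arrays. The authors deposited a probe intensity on a linear scale, not normalized, and a detection p-value for each array. A second deposited intensity table holds whole numbers with a median of 170 on every array. Its values are on a linear scale. How background was handled there, and which normalization was used, the sources used here do not state. The submitters' processing notes name lumi, with no version or steps.

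The neqc function of limma 3.58.1 (R 4.3.3) was applied to the raw intensities (normal-exponential background with controls inferred from detection p-values, offset 16, quantile normalization, log2). Probes with a detection p under 0.01 on all 3 arrays of a group were fitted with lmFit and eBayes, with group as the only term and Benjamini-Hochberg adjustment over 14964 probes. Summaries used Python 3.11.15 with pandas 2.3.3. The fit was tested on simulated data. Precision is limited by the number of arrays, 3 in each group.

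Probe names were matched to symbols of RefSeq assembly GRCh38.p14, and no coordinates were used. Members named are the 8 largest falls and 4 largest rises among calls on all 6 arrays with separated groups, the 5 brightest members, and the 4 largest differences in each direction among members detected on all arrays of 1 group and on none of the other. The rule's part on clusters with several members named none. The members, lists, bins and rules were chosen with earlier results of these data known. Alternatives were 2 background settings, scaling to the median or by cyclic loess, a fit with no filter or with detection required on 6 arrays, a replicate block, trend with robust moderation, array weights, the second deposited table on a log2 scale, and each array left out. Probe sequences were not used here.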

Additional observations from a re-analysis of the deposited data

How the results depend on the processing

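The count of members that fell stayed within 1.5 times the reported 161, at 109 to 233, except without the detection filter (94, with all 48701 probes fitted) and without GFP 1, GFP 2 or SNRK 1. Over the fits with 1 array left out it ran from 67 to 176. The count that rose, reported as 30, was 12 without the filter, 66 with array weights and 2 to 45 with 1 array left out. The cause of these shifts was not tested. With the replicate number as a block it was 10, and 109 fell. Deviations from the group means correlated at -0.0593, -0.128 and -0.297 between same-numbered arrays. Between differently numbered arrays the correlations were -0.21 to 0.293. With 3 arrays per group, these values cannot show whether same-numbered arrays shared more than a number. The median log2 difference ran from -0.10 to -0.02 over all alternatives and from -0.10 to -0.06 with 1 array left out. The median within-group SD was 0.0868 without background correction, 0.106 with the maximum likelihood background and 0.0573 on the second deposited table, and the cause was not tested. It was 0.131 to 0.174 with 1 array left out. With those deposited values, 143 members fell and 24 rose. Over the 12 named members with calls and 16 alternatives, 179 fits kept the call, 13 lost it and none changed direction. Sizes were smaller on the deposited normalized values, where HS.571405 went from -3.17 to -1.35, HS.545896 from -2.89 to -1.12, HS.537675 from -1.66 to -0.54 and HS.563600 from -2.61 to -0.99.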
